A study of Mus musculus with 18 samples.

Results

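Transcript levels of 38 genes for protein folding and stress signalling in the endoplasmic reticulum (ER) were examined across mouse thyroids on single-colour Agilent arrays. The genes were taken by name and by role, not by their measured values: 11 chaperones and co-chaperones, 6 disulfide enzymes, 5 sensors and transcription factors, 10 degradation genes, 4 targets of the transcription factor Atf4 and 2 translocon subunits. Earlier results of these data were known when the genes were chosen. A gene was read by every probe whose accession maps to it. Of the 38 genes, 37 were measured, among 17932 genes tested in all. No probe mapped to the disulfide enzyme Pdia3, which is not analysed here. All mice were C57BL/6 and 1 month old. The 4 groups were 5 wild-type (WT) and 5 Glis3KO2 (KO2) mice fed the normal NIH31 diet, and 4 WT and 4 KO2 mice fed a low-iodine diet for 6 days. Glis3, the gene targeted in KO2 mice, codes for a zinc finger protein that acts on thyroid genes. The sources used here give neither the deleted part of Glis3 nor the sex of the mice, and do not say whether mice were littermates.

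Thyroid follicular cells make and secrete thyroglobulin, a very large glycoprotein that is folded and cross-linked by disulfide bonds in the ER before iodine is attached to it. Chaperones of the ER lumen such as Hspa5 (BiP) and Hsp90b1 (GRP94) hold unfolded chains, disulfide isomerases set their bonds, and proteins that fail to fold are pulled back to the cytosol and degraded. When unfolded protein accumulates, the membrane sensors Ern1 (IRE1 alpha), Eif2ak3 (PERK) and Atf6 signal to the nucleus, Ern1 by splicing the mRNA of Xbp1, Eif2ak3 by favouring translation of Atf4, and Atf6 by being cleaved to a transcription factor. Splicing, cleavage and translation are not seen by these probes, which report transcript levels only.

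Levels are given as log2 of the spot's processed signal minus the array's 75th percentile, so that 0 is the 75th percentile of that array. They compare the same probe between arrays and not one gene with another. The share of spots well above background ran from 60.1% to 90.6% over the arrays. WT low-iodine replicate 2 stood apart in brightness, with a median signal of 191.5 against 61.6 to 85.5 on the other low-iodine arrays. Every ER gene was well above background on all 18 arrays except Chac1, which was so on 2 of the 4 KO2 low-iodine arrays. The follicular markers Tg, Pax8, Nkx2-1, Foxe1, Hhex and Tshr were all measured, with a mean level per array of 2.67 to 3.98. The probe for Glis3 overlapped between the genotypes on both diets. Its level ran from −6.08 to −4.79 in WT and from −5.46 to −4.16 in KO2 on the normal diet, and from −1.60 to −0.74 in WT and −4.06 to −1.49 in KO2 on the low-iodine diet. Whether it lies within the deleted part is not known here, so it does not check the labels. In whole thyroids, fewer cells of a type and less RNA per cell cannot be told apart.

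None of the 37 genes differed between the genotypes past the test on the normal diet. Nearly all 37 genes were high on 2 WT arrays, and the median difference was no longer negative when both were left out. Leaving out high WT arrays raises a difference by itself. On the low-iodine diet Ern1 rose in KO2 thyroids by 1.18 ± 0.20 (SE, n = 4 and 4) on the log2 scale, a 2.27-fold difference. Edem2, a degradation factor, fell by 1.05 ± 0.31. Chaperones and disulfide enzymes had mostly negative differences in KO2 on that diet, with all KO2 arrays below all WT arrays for 8 of 16 genes, where 9.10% of all genes were lower without overlap, but none of them passed the test. The sensors had mostly positive differences on both diets.

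Several of these genes carry the ER stress response element (ERSE), the paired boxes CCAAT and CCACG 9 bases apart at which Atf6 and spliced Xbp1 act, close before their start. The boxes were searched on both strands in the 250 bases before the start in RefSeq's promoter table (GRCm38.p6), which held 36 starts of 33 of the 38 genes. They were found at 9 member starts (25%), against 37 of 32851 starts in the whole table (0.113%). The 9 genes are the chaperones Hspa5, Hsp90b1, Calr, Canx, Creld2 and Dnajc3, the disulfide enzyme Pdia6 and the degradation genes Derl3 and Syvn1. The Hspa5 window is shown whole, since this promoter is the textbook case, and the other genes by the boxes with up to 30 bases on each side. Each sequence runs 5′ to 3′ on the gene's strand, and capitals mark the boxes, which read CGTGG and ATTGG where the element lies on the opposite strand.
Hspa5, chr2:34771840-34772089, plus strand: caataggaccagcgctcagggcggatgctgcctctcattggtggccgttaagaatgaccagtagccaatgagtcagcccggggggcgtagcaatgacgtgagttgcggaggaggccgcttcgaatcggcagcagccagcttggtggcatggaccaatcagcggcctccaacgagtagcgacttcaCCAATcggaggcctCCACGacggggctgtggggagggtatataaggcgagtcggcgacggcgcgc
Hsp90b1, chr10:86705503-86705686, minus strand: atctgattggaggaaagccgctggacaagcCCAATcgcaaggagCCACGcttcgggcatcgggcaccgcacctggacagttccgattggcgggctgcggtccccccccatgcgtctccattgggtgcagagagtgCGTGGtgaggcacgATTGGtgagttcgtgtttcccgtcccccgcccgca
Calr, chr8:84847045-84847123, minus strand: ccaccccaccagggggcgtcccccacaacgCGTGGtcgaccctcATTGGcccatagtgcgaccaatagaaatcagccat
Canx, chr11:50325770-50325848, minus strand: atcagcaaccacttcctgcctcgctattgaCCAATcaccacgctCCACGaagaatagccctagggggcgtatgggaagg
Creld2, chr15:88819490-88819568, plus strand: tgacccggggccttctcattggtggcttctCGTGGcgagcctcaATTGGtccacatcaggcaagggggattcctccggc
Dnajc3, chr14:118937797-118937875, plus strand: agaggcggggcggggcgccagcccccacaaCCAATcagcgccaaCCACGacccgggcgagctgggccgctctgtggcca
Pdia6, chr12:17266461-17266539, plus strand: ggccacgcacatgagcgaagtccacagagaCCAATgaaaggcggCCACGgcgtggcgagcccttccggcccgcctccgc
Derl3, chr10:75893212-75893290, plus strand: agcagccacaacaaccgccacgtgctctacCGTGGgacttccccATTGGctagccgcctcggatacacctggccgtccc
Syvn1, chr19:6046502-6046575, plus strand: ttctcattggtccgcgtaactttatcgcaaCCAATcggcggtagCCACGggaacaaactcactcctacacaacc
In Hspa5 the exact boxes lay 65 to 47 bases before the start. Hsp90b1 held the exact element 2 times, once on each strand. Copies with a changed base were not counted, such as CCAAT and CCAAC 9 bases apart in the Hspa5 window.

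A further motif searched was TGATGNAA, the composite site at which Atf4 binds with a partner of the C/EBP family. It was found on either strand at 4 of the 36 member starts (11.1%), those of Asns, Chac1, Herpud1 and Txndc5, against 3.45% of all starts in the table. Of the 4 Atf4 targets it was thus found at 2, and Ddit3 and Trib3 had no match in this window. The sites of the amino acid synthesis gene Asns and of Chac1 are shown because these genes were high on the same normal-diet arrays. Trib3 and Ddit3, without a match, were high there too, as was Herpud1, whose site is not shown. The 8 bases of the motif are in capitals.
Asns, chr6:7693210-7693262, minus strand: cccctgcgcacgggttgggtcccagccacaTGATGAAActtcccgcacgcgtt
Chac1, chr2:119351019-119351086, plus strand: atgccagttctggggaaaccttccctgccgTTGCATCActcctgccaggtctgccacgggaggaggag
The site reads in reverse in Chac1. The motif TGACGTGG, known as a site for spliced Xbp1, was found at 1 member start, that of Txndc5 (2.78%, against 0.563% of all starts). Its reverse holds the box CCACG, so it shares letters with the ERSE. These are matches of letters in a fixed window, and binding was not measured.

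In the normal-diet comparison, with 5 arrays of each genotype, 0 of 37 ER genes passed limma's test at an adjusted p under 0.05, where 1.39% of all genes did, and 2 had an unadjusted p under 0.05. The difference, KO2 minus WT, was negative for 30 genes and positive for 7. Its median was −0.29, against 0.05 over all genes tested.

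Among the chaperones, Hspa5, the main lumenal Hsp70 protein, stood at 8.02, 6.33, 6.64, 6.83 and 7.75 in WT replicates 1 to 5 and at 6.74, 7.33, 6.47, 6.13 and 6.65 in KO2. WT replicates 1 and 5 were above every KO2 array, and the other WT arrays lay among the KO2 arrays. The difference was −0.45 ± 0.31 (SE, adjusted p = 0.595). Creld2, a secreted ER stress-induced protein, stood at 8.41, 5.99, 6.54, 6.88 and 8.16 in WT and at 6.72, 7.37, 6.36, 5.76 and 6.75 in KO2 (difference −0.61 ± 0.40). Sdf2l1, a component of the chaperone complex around Hspa5, showed the same WT arrays at 5.89 and 5.88 and the other 3 at 3.13 to 4.08, with KO2 at 3.11 to 4.92. Of the 11 chaperones 10 had a negative difference, with a median of −0.45, and for 10 of them WT replicate 5 was among the 2 highest WT arrays, as replicate 1 was for all 11. On its brightest probe Canx, the membrane lectin chaperone calnexin, had a difference of −0.01 ± 0.13, against −0.65 and −0.29 on its other probes, and levels of 5.14 to 5.53 in WT and 5.16 to 5.43 in KO2.

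The disulfide enzymes showed the same 2 arrays. Pdia4 (ERp72) stood at 5.24, 1.81, 2.56, 3.03 and 4.90 in WT and at 2.98, 3.41, 1.98, 2.80 and 3.08 in KO2, so that WT spanned a wider range than KO2 and enclosed it. P4hb, the founding protein disulfide isomerase, stood at 6.26 and 6.16 in WT replicates 1 and 5, at 4.87 to 5.36 in the other WT arrays and at 5.05 to 5.71 in KO2. The median difference of the 5 measured enzymes was −0.19. Dnajc10, a disulfide reductase with a J domain, ran from 1.93 to 2.11 in WT and from 1.82 to 2.31 in KO2.

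Degradation genes included the largest negative difference of the 37 on this diet. Derl3, a derlin that helps proteins leave the ER, stood at 6.89, 2.73, 3.18, 4.42 and 6.50 in WT and at 4.15, 2.69, 2.52, 2.73 and 3.89 in KO2. WT replicates 1 and 5 exceeded every other array by over 2 log2 units, and WT replicate 4 was the next highest. Its difference was −1.55 ± 0.67 (unadjusted p = 0.0329, adjusted p = 0.319). Sel1l, the adaptor of the ubiquitin ligase Syvn1 (Hrd1), stood at 3.24, 0.07, 0.36, 0.65 and 2.33 in WT and between −0.15 and 1.24 in KO2. Herpud1, a stress-induced ligase cofactor, stood at 6.60, 4.37, 4.06, 5.50 and 6.47 in WT and at 5.81, 5.31, 5.28, 3.86 and 5.31 in KO2. Of the 10 degradation genes 9 had a negative difference, with a median of −0.29, and in each of the 10 the WT replicate 1 was the highest WT array and replicate 5 the second. The exception in sign was Edem3, a mannosidase-like factor, at 0.29 ± 0.19.

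The Atf4 targets set single arrays apart most. Chac1, which degrades glutathione, stood at 3.69, −0.52, −2.16, −1.07 and 3.92 in WT and at 2.87, −0.49, −1.57, 0.08 and −2.12 in KO2. Trib3, a pseudokinase that restrains Atf4, stood at 4.46, 0.28, 0.40, 0.38 and 4.09 in WT and at 3.38, 0.73, 1.53, 0.04 and 1.53 in KO2. Ddit3 (CHOP), a pro-apoptotic transcription factor, stood at 4.91, 1.24, 0.26, 1.16 and 3.82 in WT and at 2.69, 0.91, 1.26, 0.89 and 0.33 in KO2. Asns stood at 5.97, 3.65, 3.56, 3.66 and 4.94 in WT and at 5.32, 4.08, 3.94, 3.79 and 4.17 in KO2. In all 4 genes WT replicates 1 and 5 and KO2 replicate 1 were the highest of the 10 arrays, and the other 7 arrays overlapped between the genotypes for Chac1, Trib3 and Ddit3. For Asns these 7 were lower in WT, at 3.56 to 3.66, than in KO2, at 3.79 to 4.17. The median difference of the 4 genes was −0.75, and the error of each was large, as for Chac1 at −1.02 ± 1.15.

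The sensors went the other way. Ern1 stood at −1.33, −1.38, −1.63, −1.39 and −1.82 in WT and at −0.73, −1.21, −0.58, −1.15 and −1.11 in KO2, so every KO2 array was above every WT array. Its difference of 0.55 ± 0.18 had an unadjusted p of 0.00801 and did not pass adjustment over all genes (adjusted p = 0.171). No other of the 37 genes had its WT and KO2 arrays apart on this diet, where 1.88% of all genes were higher in KO2 without overlap and 1.63% lower. Eif2ak3 (0.31 ± 0.20), Atf6 (0.22 ± 0.27) and Xbp1 (0.01 ± 0.17) had positive differences with overlapping arrays, and Atf4 itself, at −0.11 ± 0.42, was high on WT replicates 1 and 5 and KO2 replicate 1 (2.93, 2.64 and 2.74, against 0.62 to 1.62 on the others). The translocon subunits Sec61a1 and Sec61b, which form the channel into the ER, both differed by −0.18.

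**Figure D1:**
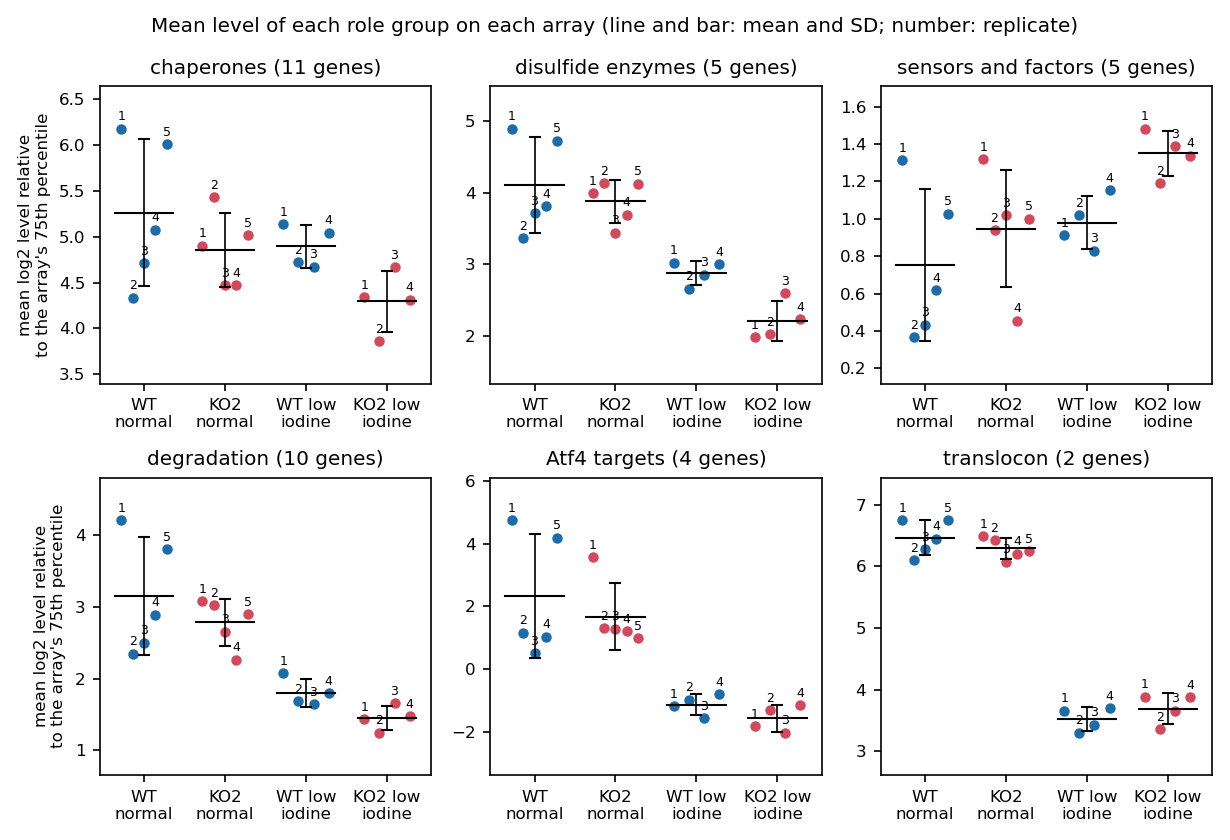
Mean log2 level of each role group on each array (y axis, relative to the array's 75th percentile) for the 4 groups, blue for WT and red for KO2, with the replicate number above each point and the group mean and SD in black. WT replicates 1 and 5 on the normal diet stand apart for chaperones at 6.18 and 6.01 and for Atf4 targets at 4.76 and 4.20, and KO2 replicate 1 stands apart for Atf4 targets at 3.57.

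WT replicates 1 and 5 were the 2 highest WT arrays for 34 of the 37 genes. Replicate 1 was the highest WT array for 32 genes, and it lay 1.08 above the median WT array in the median gene, replicate 5 lying 0.78 above. KO2 arrays were less far apart, with medians of −0.32 to 0.15 from the middle array. The 2 WT arrays were on different slides, 1 and 3, and had 71.7% and 73.3% of spots well above background, within the 69.7% to 75.7% of the other WT arrays. The same arrays were the 2 highest for 58 of 71 other measured genes of the pathway and for 10 of 13 other Atf4 targets. This count was not made over all genes tested, so how particular it is to ER genes is not known here.

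The median difference on the normal diet moved when these 2 arrays were left out. Without WT replicate 1 the median difference was −0.06, with 21 negative and 16 positive genes, and without WT replicate 5 it was −0.10. Without both it was 0.23, with 31 positive and 6 negative genes, and without KO2 replicate 1 as well it was 0.19, with 28 positive and 9 negative. Both removals were chosen after the values were seen, and 0 of 37 genes passed the test under either. Leaving out the 2 highest WT arrays of a gene can only raise its difference, so no rise in KO2 is read from the positive medians. For the same reason the removals do not show that the negative differences come from these arrays. KO2 replicate 2, the highest KO2 array for all 11 chaperones, was kept. Within slides the median was −0.77 on slide 1, which held WT replicate 1 and KO2 replicate 2, 0.02 on slide 2, and −0.29 on slide 3, which held WT replicates 4 and 5 and KO2 replicates 1 and 5. For all genes these medians were 0.13, 0.04 and 0.01.

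**Figure D2:**
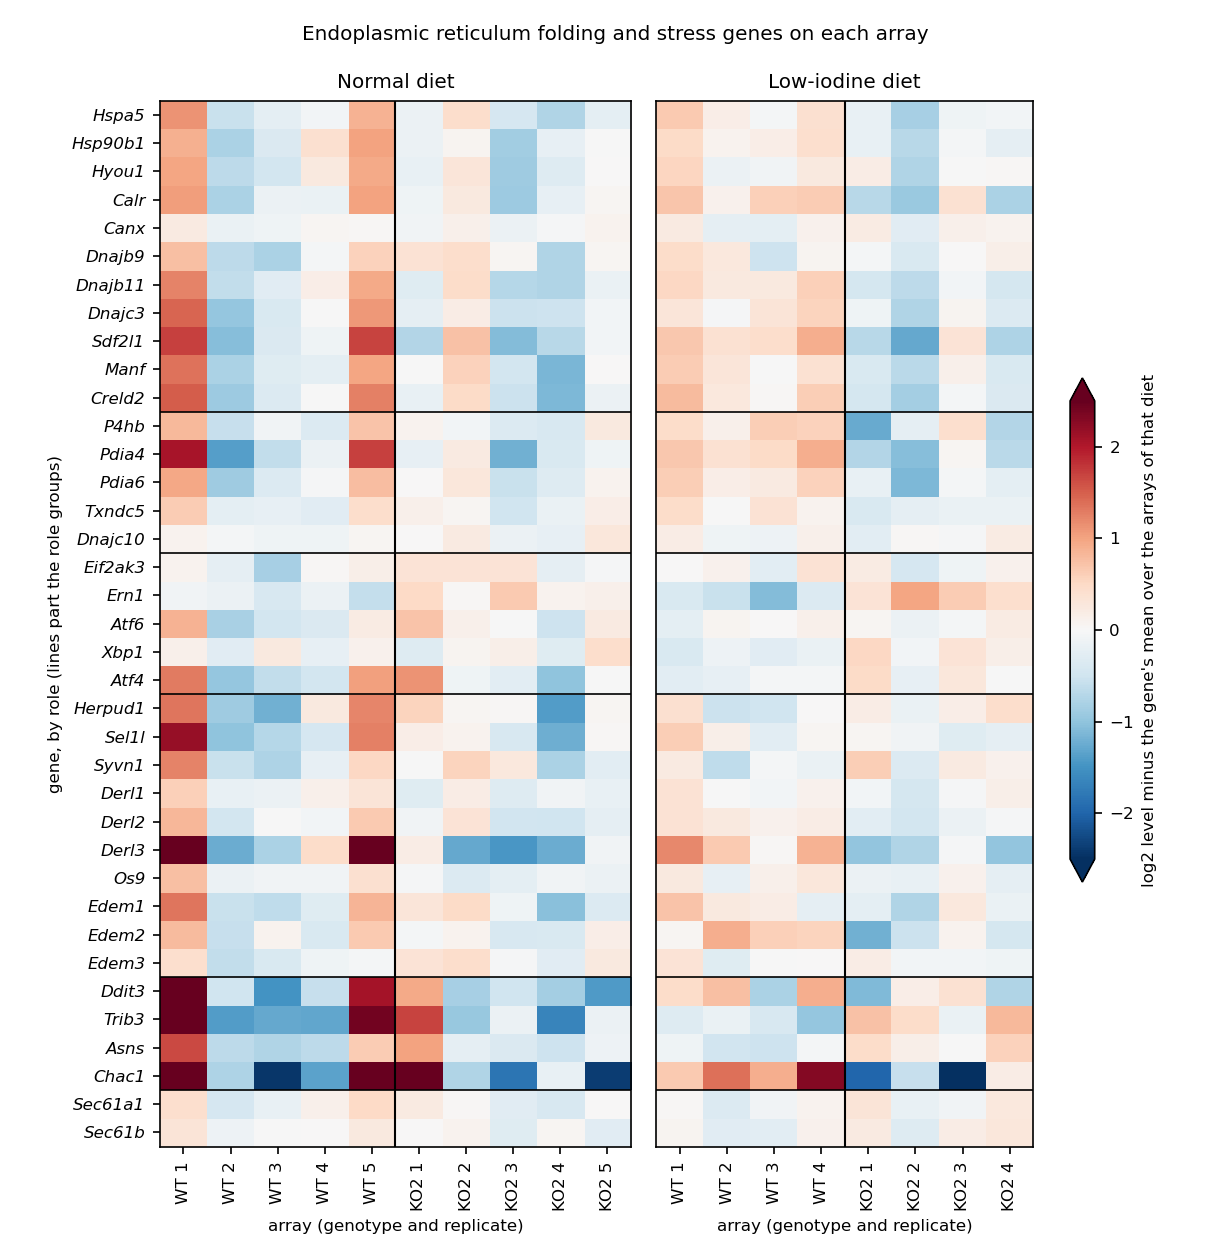
Log2 level of each of the 37 genes on each array minus the gene's mean over the arrays of that diet, red for higher and blue for lower, with the colour scale ending at 2.5 in either direction. Columns are arrays and rows are genes in role groups parted by lines; on the normal diet WT 1 and WT 5 are red in most rows, and on the low-iodine diet the WT columns are mostly red and the KO2 columns mostly blue for chaperones and disulfide enzymes.

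Markers of other tissues also differed on those arrays. The mean level of 6 fat markers was 3.69 and 3.08 on WT replicates 1 and 5, against 4.29 to 4.76 on the other WT arrays, and 1.59 on KO2 replicate 1 against 4.27 to 5.37 on the other KO2 arrays. Cell division markers were highest on the same WT arrays, at −1.67 and −0.00 against −3.27 to −1.99, and stood at −5.72 to −3.44 in KO2. All 6 of them were lower in KO2 by the test on this diet, as were 4 of 7 fibroblast and 3 of 7 thymus markers. Endothelial markers stood at 0.30 and 0.50, against 0.95 to 1.12, and at 0.18 on KO2 replicate 1 against 0.50 to 1.20. WT replicates 1 and 5 did not go together for every tissue. Thymus markers were lowest on replicate 1 at −2.87 and highest on replicate 5 at 1.42, with the other WT arrays at −1.51 to −0.74. Skeletal muscle markers stood at −2.37 and 0.28, within the −3.23 to 4.65 of the other WT arrays. Follicular markers stood at 3.60 and 3.33 on WT replicates 1 and 5, against 2.98 to 3.32 on the other WT arrays, and at 3.45 to 3.98 in KO2. All 6 had a positive difference on this diet, with a median of 0.40, and 1 was higher in KO2 by the test. Plasma cell markers, whose cells are rich in ER, had array means of −4.84 to −2.74 over both diets. Of the 4 measured, 3 or 4 were well above background on each array. Jchain was so on 1 of 5 WT and 1 of 5 KO2 normal-diet arrays. The part of these markers in the result was not tested.

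**Figure D3:**
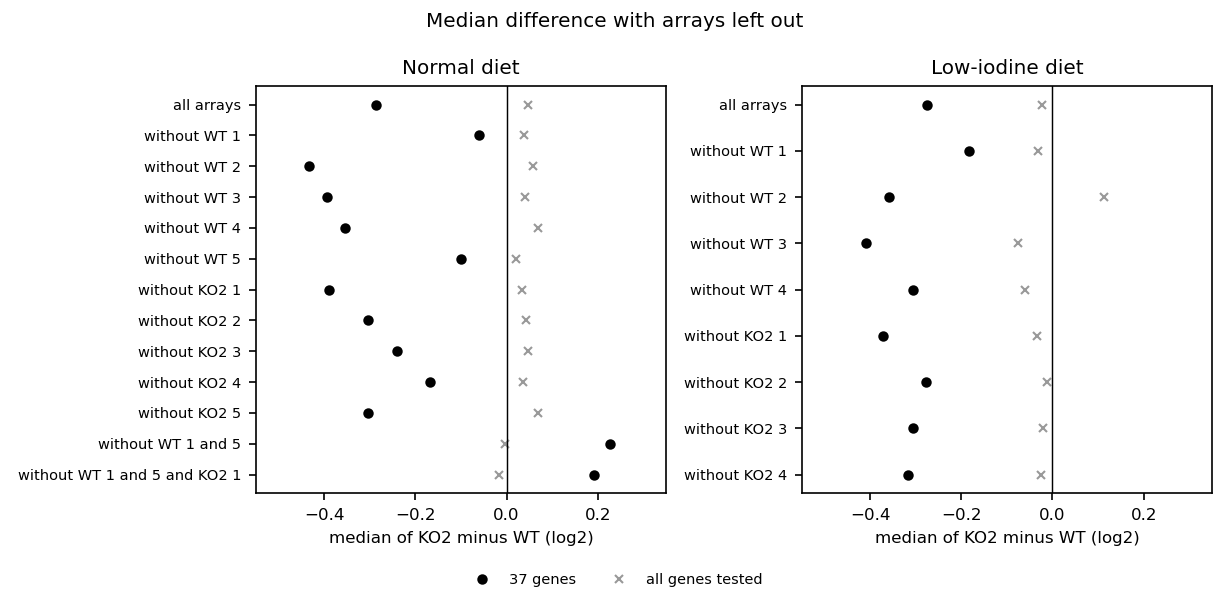
Median over the 37 genes of the difference KO2 minus WT (x axis, log2) with all arrays and with arrays left out (y axis), as black dots, with the median over all genes tested as grey crosses. On the normal diet the dot moves from −0.29 to 0.23 when WT 1 and WT 5 are both left out, and on the low-iodine diet it stays between −0.41 and −0.18.

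On the low-iodine diet, with 4 WT and 4 KO2 arrays, 2 of 37 genes (5.41%) passed limma's test, 1 higher and 1 lower in KO2. Of all genes tested 15.0% passed, 7.81% higher and 7.18% lower, so the share of ER genes that passed was not above the background. The difference was negative for 26 genes and positive for 11, with a median of −0.28 against −0.02 over all genes. Arrays of the genotypes did not overlap for 15 of the 37, 11 lower in KO2 and 4 higher, where 9.10% of all genes were lower without overlap and 10.6% higher.

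Ern1, the sensor that splices Xbp1, stood at −0.38, −0.54, −1.07 and −0.33 in WT and at 0.36, 0.99, 0.65 and 0.42 in KO2. All KO2 arrays were above all WT arrays, and the rise of 1.18 ± 0.20 had an adjusted p of 0.000975. It passed under each of the 19 alternatives with a test and was 0.85 within slide 4 and 1.52 within slide 5. Xbp1 stood at 1.06, 1.32, 1.18 and 1.29 in WT and at 1.98, 1.38, 1.80 and 1.61 in KO2. Its arrays were apart as well, with a difference of 0.48 ± 0.19 that did not pass (adjusted p = 0.0993). The other sensors overlapped between the genotypes, at 0.28 ± 0.47 for Atf4, 0.02 ± 0.30 for Atf6 and −0.11 ± 0.22 for Eif2ak3.

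Edem2, which helps mark misfolded glycoproteins for degradation, stood at −1.40, −0.52, −0.85 and −0.89 in WT and at −2.65, −1.97, −1.35 and −1.89 in KO2. KO2 replicate 3 lay just above WT replicate 1, so the groups overlapped by 1 array on each side. The fall of 1.05 ± 0.31 had an adjusted p of 0.0324. Its call was lost with each array scaled to its median (adjusted p = 0.128), without scaling (0.0512), with only the 8 arrays compared (0.0672), and on leaving out WT replicate 2, 3 or 4 or KO2 replicate 1, 2 or 4 (0.0589 to 0.110). Without the bright WT replicate 2 its difference was −0.92 (adjusted p = 0.0865), that of Ern1 was 1.20 (adjusted p = 0.00267) and the median of the 37 genes was −0.36. The Edem2 difference was −1.31 within slide 4 and −0.80 within slide 5. The other degradation genes did not pass, with differences between −1.38 for Derl3 and 0.31 for Herpud1 and a median of −0.25 over the 10. Derl3 stood at 1.65, 1.10, 0.47 and 1.31 in WT and at −0.55, −0.30, 0.42 and −0.53 in KO2, with KO2 replicate 3 just below WT replicate 3.

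Chaperones had negative differences in 10 of 11 genes with a median of −0.59, and in none did the test pass. Calr (calreticulin), a lectin chaperone of glycoproteins, stood at 5.59, 4.99, 5.47 and 5.53 in WT and at 4.18, 3.96, 5.27 and 4.09 in KO2. Of the KO2 arrays 3 were below all WT arrays and replicate 3 lay within them, and the difference was −1.02 ± 0.39 (adjusted p = 0.0905). Sdf2l1 stood at 5.73, 5.42, 5.49 and 5.96 in WT and at 4.35, 3.78, 5.39 and 4.29 in KO2 (difference −1.20 ± 0.56, adjusted p = 0.167). Dnajb11, a co-chaperone of Hspa5, ran from 4.33 to 4.70 in WT and from 3.44 to 4.03 in KO2 (difference −0.80 ± 0.35, adjusted p = 0.142). It passed with only the low-iodine arrays in the fit (adjusted p = 0.0309). Hspa5 stood at 6.06, 5.57, 5.35 and 5.79 in WT and at 5.22, 4.58, 5.30 and 5.34 in KO2, with a difference of −0.59 ± 0.34 (adjusted p = 0.299). Its groups were apart by less than 0.01, and KO2 replicate 2, the lowest array, was also the lowest KO2 array for all 11 chaperones.

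The 5 measured disulfide enzymes all had negative differences, with a median of −0.79. P4hb stood at 3.65, 3.32, 3.81 and 3.77 in WT and at 1.94, 2.97, 3.62 and 2.46 in KO2 (difference −0.89 ± 0.34, adjusted p = 0.0922), where KO2 replicate 3 lay within the WT arrays. Pdia4 stood at 5.00, 4.70, 4.80 and 5.23 in WT and at 3.59, 3.25, 4.37 and 3.66 in KO2, all below WT (difference −1.22 ± 0.58, adjusted p = 0.184). It passed with only the low-iodine arrays in the fit (adjusted p = 0.0234). Pdia6, read by 3 probes, differed by −0.79 on its brightest probe and by −1.44 and −1.76 on the others. Txndc5, a thioredoxin domain protein of the ER, was lower on every KO2 array as well, at −0.27 to −0.05 against 0.10 to 0.57 in WT. Dnajc10 differed by −0.03 ± 0.15.

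Atf4 targets did not go one way on the low-iodine diet. Trib3 stood at −1.80, −1.64, −1.88 and −2.44 in WT and at −0.74, −1.02, −1.64 and −0.66 in KO2 (difference 0.93 ± 0.89). Asns, at 1.98 to 2.44 in WT and 2.48 to 3.06 in KO2, was also apart upward (0.58 ± 0.45). Chac1 was apart downward, at −3.50 to −1.86 in WT and −7.03 to −3.97 in KO2 (difference −2.62 ± 1.29, adjusted p = 0.196), and 2 of the 4 KO2 arrays were not well above background. Ddit3 overlapped, with a difference of −0.66 ± 0.82. The SE of these genes, as of all ER genes, comes from a spread shared with the normal-diet arrays, on which single arrays stood far apart. With only the 8 low-iodine arrays in the fit Chac1 passed (adjusted p = 0.0465), as did Dnajb11 (0.0309), Pdia4 (0.0234) and Derl3 (0.0305), with 9.33% of all genes passing. The translocon subunits differed by 0.15 ± 0.21 for Sec61a1 and 0.19 ± 0.17 for Sec61b.

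**Figure D4:**
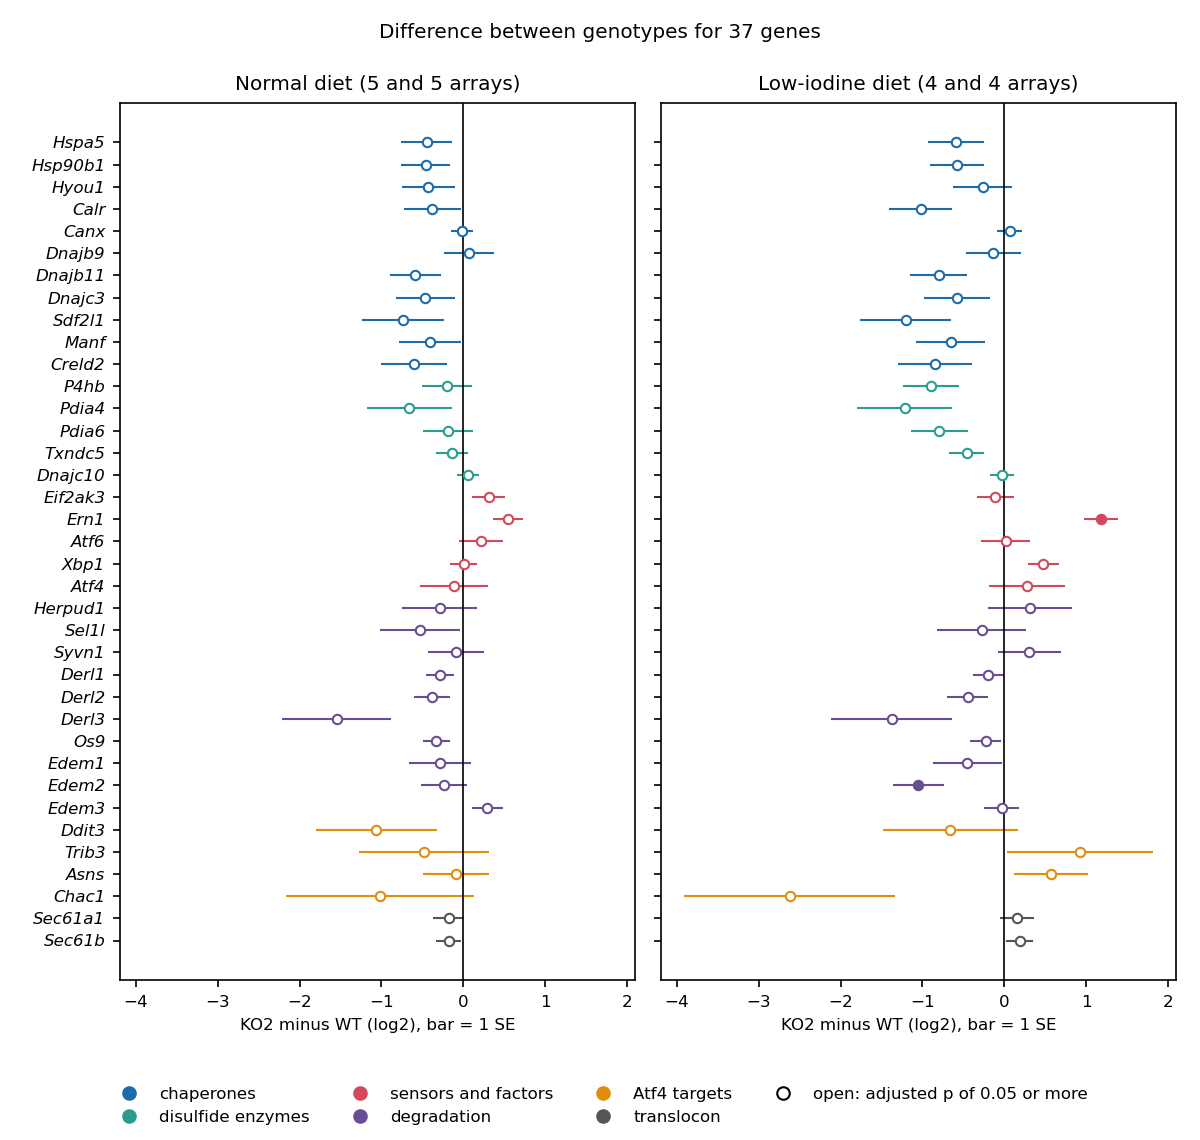
Difference KO2 minus WT (x axis, log2) with 1 SE for each of the 37 genes (y axis, coloured by role) on the normal diet (left) and the low-iodine diet (right), filled where the adjusted p is under 0.05. Ern1 at 1.18 and Edem2 at −1.05 on the low-iodine diet are the filled points, and the chaperones lie at or below 0 except Dnajb9 at 0.07 on the normal diet and Canx at 0.07 on the low-iodine diet.

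The count of called genes on the low-iodine diet moved with the model, and the direction of those called did not. With slide as a block 5 genes passed, Ern1 upward and Edem2, Calr (adjusted p = 0.0429), Dnajb11 (0.0148) and P4hb (0.0374) downward, with 16.2% of all genes passing. Without KO2 replicate 3, 4 genes passed, Calr (0.0317) and P4hb (0.0244) among them, and 14.3% of all genes did. With normexp background correction and quantile normalization 9 passed, 8 of them lower in KO2, while the share of all genes passing rose to 22.2%. With each array scaled to its median or not scaled at all, Ern1 alone passed, and the median of all genes was 0.13 and −0.29. Against the all-gene median, the ER genes' median was lower by either scaling, at −0.13 and −0.54. Over these alternatives 27 of the 37 genes kept 1 sign.

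Single probes of a gene did not always tell the same. Of 17 genes read by more than 1 probe, 5 had probes of both signs on the low-iodine diet and 2 on the normal diet. Ern1 and Edem2, the genes that passed on the low-iodine diet, are each read by 1 probe, so no second probe checks them. With each probe tested as a feature of its own on the low-iodine diet, a second probe of Hsp90b1 (−1.05, adjusted p = 0.0317), of Edem1 (−1.40, 0.0306) and of Derl1 (−0.92, 0.0357) passed, while the brightest probe did not (−0.58, −0.45 and −0.19). The other 2 Derl1 probes stood at 0.43 and −0.15. Which transcripts each probe reads was not resolved here.

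**Figure D5:**
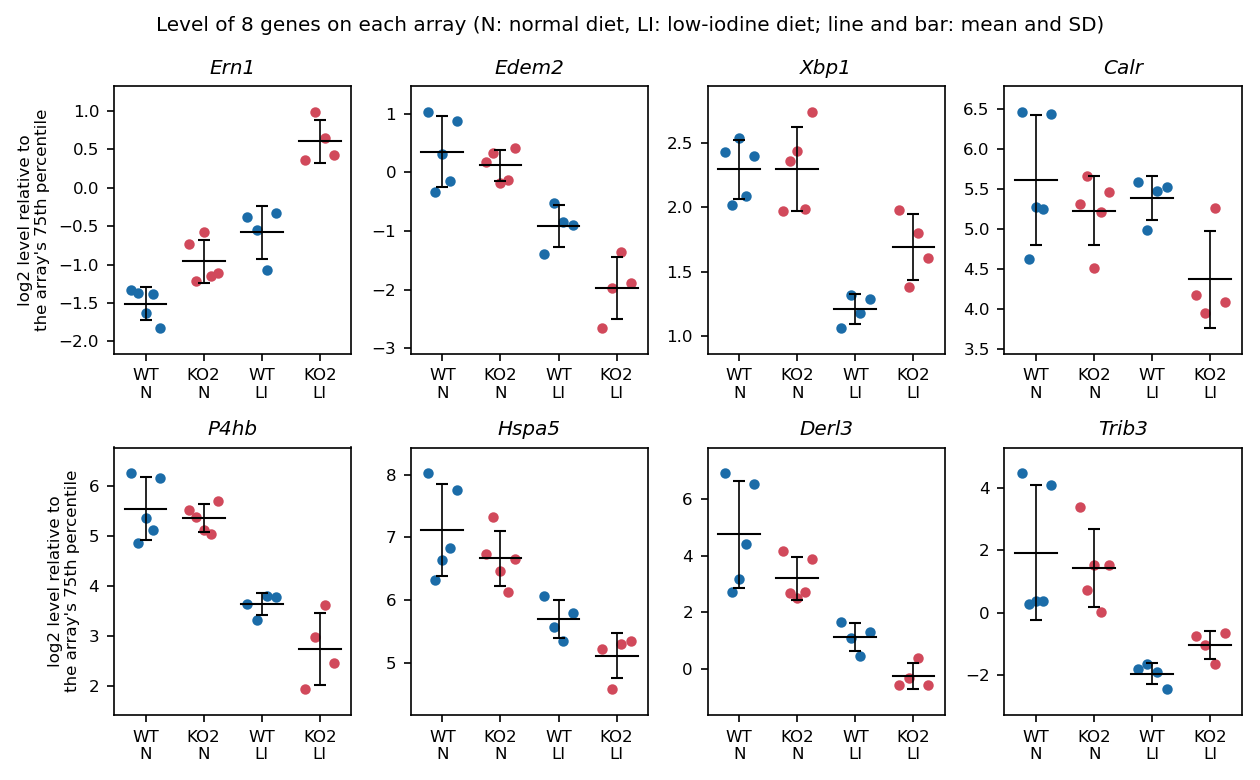
Log2 level of 8 genes on each array (points; y axis, relative to the array's 75th percentile) in WT (blue) and KO2 (red) on the normal (N) and low-iodine (LI) diet, with the mean and SD in black. The KO2 arrays of Ern1 lie above the WT arrays on both diets, and the normal-diet WT arrays of Derl3 and Trib3 split into 2 high arrays and 3 lower ones.

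Markers of other cells differed between the genotypes on the low-iodine diet. All 6 cell division markers were lower in KO2, with array means of 0.38 to 1.00 in WT and −4.64 to −4.31 in KO2. Of 7 fibroblast markers 4 were lower and 1, Dcn, was higher, with array means of 2.14 to 2.72 in WT and 0.33 to 1.38 in KO2. Of 7 salivary gland markers, another secretory tissue, 3 were lower, the near-identical Dcpp1, Dcpp2 and Dcpp3, with array means of 1.50 to 1.96 in WT and −0.80 to 0.16 in KO2 that these genes carry. The other 4, among them the amylase gene Amy1 at a difference of 0.85, were positive without passing. The endothelial markers were lower for 3 of 5, at 1.95 to 2.19 in WT and 0.95 to 1.14 in KO2. Follicular markers stood at 2.67 to 3.00 in WT and 2.76 to 3.32 in KO2, where 1 of 6, Nkx2-1, was higher. Plasma cell markers did not pass, at −4.39 to −2.74 in WT and −3.83 to −3.50 in KO2. The part of these markers in the differences of the ER genes was not tested.

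No ER gene passed the test of the genotype by diet interaction, which asks whether KO2 and WT differed by another amount on the low-iodine diet than on the normal one. The count was 0 of 37 by limma, where 1.22% of all genes passed, and 1 gene had an unadjusted p under 0.05. That gene was Ern1, at 0.64 ± 0.27 (adjusted p = 0.30). With normexp and quantile normalization 1 gene passed.

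The 9 genes with the ERSE boxes had differences of −1.55 to −0.01 on the normal diet, all negative, and of −1.38 to 0.31 on the low-iodine diet, 7 of 9 negative. Their medians were −0.45 and −0.59. In the 23 measured genes with a promoter in the table and without the boxes the medians were −0.23 and −0.23, with 17 and 16 of 23 negative. The sets were not tested against each other. Genes without the boxes lack them at this exact spacing and order only. Herpud1, in that set, holds ATTGG and CCACG closer together. Of the 9 genes 6 are chaperones, a group whose medians were −0.45 and −0.59 as well, so boxes and role cannot be told apart here. The chaperones with a promoter and without the boxes were Sdf2l1, Dnajb11 and Dnajb9. They differed by −0.74, −0.59 and 0.07 on the normal diet and by −1.20, −0.80 and −0.13 on the low-iodine diet. The normal-diet medians share the WT arrays named above.

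Diet cannot be told apart from slide and scanner, since slides 1 to 3, read on one scanner model, held normal-diet arrays and slides 4 and 5, read on another, held those of the low-iodine diet. Between the diets 27 of 37 ER genes passed in WT and 28 in KO2 (73% and 75.7%), where 75.9% and 74.4% of all genes did. In WT 6 were higher and 21 lower on the low-iodine arrays, where 39.4% of all genes were higher and 36.5% lower, and in KO2 5 were higher and 23 lower, against 37.5% and 36.9%. With each array scaled to its median the split became 0 and 27 in WT and 1 and 27 in KO2, with the all-gene median at −0.91 and −0.80, and with normexp and quantile normalization it was 11 and 17, and 10 and 18. Sec61b was lower on the low-iodine arrays by every scaling, with 6.97 to 7.41 on WT normal-diet and 2.96 to 3.35 on WT low-iodine arrays (difference −4.03). Syvn1 was too, at 4.31 to 6.32 and −0.02 to 0.84, with a WT difference of −4.67 on the brightest probe. A second Syvn1 probe went the other way, at 2.24 in WT and 1.83 in KO2, and the mean of the probes gave −1.22 in WT. Edem1 probes went both ways between the diets in WT, at −1.87 for the brightest and at −1.30 and 3.70 for the others. Probes of Calr, Canx, Dnajb9, Dnajc3, Dnajc10, Os9, Derl1 and Sec61a1 went both ways in WT too. The brightest Canx probe differed by −0.62 and the others by 5.3 and 0.94. Probes of Hsp90b1, Pdia6, Txndc5, Derl2 and Trib3 were all negative, and those of Atf6 and Sel1l all positive. With the mean of a gene's probes the split was 9 and 19 in WT and 7 and 19 in KO2. Ddit3 differed by −4.21 in WT and −3.81 in KO2. Ern1 was higher on the low-iodine arrays by 0.93 in WT and 1.56 in KO2, and with median scaling its WT difference was −0.06. Edem3 was higher by 1.61 and 1.29, and with median scaling neither passed.

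Of 72 other genes of ER entry, folding, signalling, degradation and the Atf4 response, 71 were measured. Under the normal diet 0 of 71 passed by limma, with 4 at an unadjusted p under 0.05, and the median difference was −0.21. On the low-iodine diet 5 of 71 passed (7.04%, against 15.0% of all genes), 4 lower and 1 higher in KO2, with a median of −0.19. Fkbp11, a prolyl isomerase of secretory cells, stood at 1.60, 1.70, 1.76 and 1.96 in WT and at −0.13, −0.46, 0.63 and −0.41 in KO2. All its KO2 arrays were below WT, and it fell by 1.85 ± 0.52 (adjusted p = 0.0237). Pdia5, a further disulfide isomerase, fell by 1.51 ± 0.38 (adjusted p = 0.0125), from 1.00 to 1.76 in WT to −0.38 to 0.58 in KO2. Ssr2, a subunit of the translocon-associated complex, fell by 0.88 ± 0.22, and Srprb, a subunit of the receptor that docks ribosomes at the ER, fell by 1.30 ± 0.39 with overlapping arrays. Rnf139, an ER ubiquitin ligase, rose by 0.49 ± 0.13, from 0.93 to 1.39 in WT to 1.67 to 1.84 in KO2. With each array scaled to its median none of the 5 passed (adjusted p = 0.0574 to 0.148). Fkbp11 also lost its call without WT replicate 3 or 4 or KO2 replicate 1, 2 or 4 (adjusted p = 0.0508 to 0.0644). Srprb lost it without WT replicate 2, 3 or 4 or KO2 replicate 1 or 4 (0.0594 to 0.112), and Rnf139 without WT replicate 2 (0.0583). With only the arrays compared Ssr2 (0.0583), Srprb (0.118) and Rnf139 (0.0967) did not pass. With the mean of a gene's probes Fkbp11 (0.128), Srprb (−0.70, 0.234) and Rnf139 (0.27, 0.206) did not, nor did Rnf139 without scaling (0.23, 0.573).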

How the data were processed

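Thyroid RNA of 18 mice was measured on single-colour Agilent arrays of 45018 spots. Per the labels' protocols, 50 ng of total RNA was amplified and 5 ug of the product labelled. Agilent Feature Extraction 12 is the software named in the submitters' processing notes. Per the file headers each deposited file gives 1 array's processed signal, a linear intensity from which the software had taken background. The deposited value table held the same values, at a median ratio of 1 on every array and with column medians of 41.5 to 184.7, and its log2 was an alternative with no scaling.

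Control and outlier-flagged spots were removed, and levels were centred on each array's 75th percentile on the log2 scale. Of 41174 probes 28223 mapped through their accession to 1 gene of GRCm38.p6. Probes well above background on at least 4 arrays were kept, and the brightest stood for each of 17932 genes. The 65 probes of the 37 ER genes were all kept, and no spot was saturated. One model of 4 group means was fitted with limma 3.58.1 in R 4.3.3 to all 18 arrays, with Benjamini-Hochberg adjustment over all genes and a threshold of 0.05. The fit was tested on simulated data. Nothing in the labels states a pairing or separate litters, so p-values measure the spread between these samples, and the number of arrays limits the precision. The ER genes, the other lists and the comparisons were chosen with earlier results of these data known. All 38 ER genes are named by rule, with other genes of the pathway named where they passed the test. The normexp alternative used each spot's median signal with an offset of 50. The promoter sequences are RefSeq's. A further follicular marker is not reported here.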

Additional observations from a re-analysis of the deposited data

Results flagged for a closer look

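In groups of 4 or 5 arrays, 6 of 148 combinations of gene and group held 1 array that stood apart from the rest, and chance alone flags about 1 in 20. Each is given with the gap to the nearest array as a share of the group's range. On the low-iodine diet in KO2, Hspa5 was low on replicate 2 at 4.58, with the others at 5.22 to 5.34 (0.834). Sec61b was low on the same array at 2.91, with the others at 3.43 to 3.52 (0.858), and Edem3 was high on replicate 1 at 1.77, with the others at 1.48 to 1.53 (0.833). On the normal diet in KO2, Hsp90b1 was low on replicate 3 at 5.79, with the others at 6.46 to 6.73 (0.714), and Herpud1 was low on replicate 4 at 3.86, with the others at 5.28 to 5.81 (0.729). Asns was high on replicate 1 at 5.32, with the others at 3.79 to 4.17 (0.751). No WT group was flagged for any ER gene. The gap is taken to the nearest array, so 2 arrays that stand apart together hide each other and cannot be flagged. This holds for WT replicates 1 and 5 on the normal diet, as for Trib3 at 4.46 and 4.09, with the other WT arrays at 0.28 to 0.40.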

How the results depend on the processing

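On the normal diet 0 of 37 ER genes passed under every setting tried, and 105 of 961 values of single genes changed sign, in 28 genes. The median difference ran from −0.43 to −0.06 with 1 array left out, and turned to 0.23 without WT replicates 1 and 5. On the low-iodine diet the count of called genes was 1 with each array scaled to its median and 1 without scaling, where the median difference moved to −0.54. It was 5 with each probe as a feature, 5 with slide as a block, 5 with only the arrays of the groups compared, 9 with normexp and quantile normalization, and 1 to 4 with 1 array left out. The interaction count went from 0 to 1 with normexp and quantile normalization. Over the low-iodine alternatives with 1 value a gene, 11 genes passed at least once, none with the opposite sign. With each probe as a feature, probes of Edem1 and Derl1 passed as well. The cause of these shifts was not tested. Between diets Ern1 in WT turned to −0.058 (log2, adjusted p = 0.828) with median scaling. The replicate number as a block gave 0, 2 and 0 called genes for the normal diet, the low-iodine diet and the interaction, 28 and 26 between the diets, and changed no count by over 1.5 times. Same-numbered WT and KO2 arrays correlated at −0.04 to 0.32 on the normal and at 0.03 to 0.13 on the low-iodine diet. For the normal diet 1 of 5 WT arrays correlated best with its own number, and for the low-iodine diet 3 of 4 did. Since not every pair's correlation was over 0.1 on either diet, the numbers are not taken as pairs. Chac1 is limited by signal near background.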
